A study of Mus musculus with 12 samples.

Results

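Pre-mRNA splicing in skeletal muscle depends on a large set of RNA-binding proteins, and 101 of their genes were followed here across 12 gastrocnemius libraries from mice with or without a tumour. The genes are the protein-coding ones whose symbols begin with Srsf, Hnrnp, Rbm, Snrp or Sf3 and go on with further lower-case letters or digits, together with Cirbp and Ythdc1, out of 54532 genes in the table. They comprise 11 SR proteins, 20 hnRNP proteins, 12 snRNP proteins, 9 SF3A and SF3B subunits, 47 RNA-binding motif (RBM) proteins, and Cirbp and Ythdc1. The rule itself used names and gene type and no measured value, but it was set with earlier results of these data known.

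The mice were female ICR SCID animals, an immunodeficient strain, and the labels describe 4 biological replicates in each of 3 groups. The NTV group had no tumour and was given vehicle. The TV group was also given vehicle and bore s.c. (under the skin) tumours grown from HT1080, a cell line derived from a human fibrosarcoma. In the TL group, mice with HT1080 tumours were dosed orally with selpercatinib, which inhibits the RET receptor kinase, at 30 mg/kg each day by gavage over 19 days. All groups therefore share the SCID background, and no group is tumour-free with the drug; the mice's age is not given in the sources used here. TV against NTV shows what goes with the tumour, TL against TV what goes with the drug in tumour-bearing mice, and TL against NTV what remains different from tumour-free vehicle mice.

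Splicing removes introns in the nucleus. The spliceosomal snRNPs, most of which carry a ring of Sm proteins, assemble on each intron, and SF3A and SF3B hold the U2 snRNP at the branch point. SR proteins mostly favour the use of exons they bind, hnRNP proteins often oppose them, and RBM proteins include tissue-specific regulators such as Rbm20 and Rbm24, which act on transcripts of the contractile apparatus. Rbm3 and Cirbp are small glycine-rich proteins known for their induction by mild cold, and Ythdc1 is the nuclear reader of N6-methyladenosine (m6A) in RNA.

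The promoters of Cirbp and Ythdc1 are shown because both genes rose in TV and both windows hold TCCCCGCC, letters described as a mild-cold responsive element of Cirbp. Each window is RefSeq sequence of GRCm38.p6 from 250 bases before to 50 bases after an annotated start, and capitals mark matches of the 6 motifs searched. The Cirbp window, 1 of 2 listed for the gene, lies at chr10:80167589-80167888 on the plus strand and has TCCCCGCC at -247 and CCAAT at -181 and, on the minus strand, at -85. The Ythdc1 window lies at chr5:86804016-86804315 on the plus strand and has TCCCCGCC at -123. Rbm3 has no promoter entry among the sequences used.
Cirbp: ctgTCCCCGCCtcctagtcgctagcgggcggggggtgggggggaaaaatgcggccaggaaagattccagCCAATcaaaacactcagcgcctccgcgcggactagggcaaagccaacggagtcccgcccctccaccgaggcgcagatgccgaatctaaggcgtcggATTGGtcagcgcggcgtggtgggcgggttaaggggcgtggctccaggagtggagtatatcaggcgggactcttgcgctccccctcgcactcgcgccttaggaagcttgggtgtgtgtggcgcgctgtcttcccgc
Ythdc1: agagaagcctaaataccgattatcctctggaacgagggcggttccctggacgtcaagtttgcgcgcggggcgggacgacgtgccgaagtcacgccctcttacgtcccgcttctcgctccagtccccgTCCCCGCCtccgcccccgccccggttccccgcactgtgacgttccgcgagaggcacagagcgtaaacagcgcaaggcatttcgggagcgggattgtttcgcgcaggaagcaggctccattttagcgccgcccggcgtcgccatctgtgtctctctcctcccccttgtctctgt

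The motifs were searched on both strands in the promoters of 84 members and of 26994 symbols in all. TCCCCGCC was present for 11.9% of the members and 6.19% of all symbols, and CCGGAAG, the core of ETS factor sites, for 26.2% and 9.92%. CCAAT was present for 48.8% against 41.0%, TATAAA for 17.9% against 15.7%, the cAMP response element TGACGTCA for 2.38% against 2.03%, and GCGCATGC, letters within the NRF1 motif, for 3.57% against 3.05%. Members' promoters were also richer in G and C, with a median of 60.5% against 52.7%, and the part of base composition in these shares was not tested. Among members that rose in TV, 2 of 19 held TCCCCGCC and 3 of 19 held CCGGAAG. Among the other tested members these numbers were 8 of 56 and 18 of 56.

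Levels are given as FPKM, read fragments scaled for gene length and by a factor for each library, as the authors deposited them. For genes such as Ythdc1 the length used, 13651 bases, covers all annotated exonic bases. Comparisons of level between genes are therefore approximate. The libraries held 14939830 to 23580603 reads assigned to genes. The 14 muscle fibre markers summed to 53489 to 100501 FPKM in every library with none listed at 0, as the gastrocnemius label says. Along the second principal component of all genes, TL replicates 1 and 5 lay at -31.9 and -32.6, apart from the other 10 libraries, which lay between -3.07 and 16.6. Brown-fat Ucp1 was at 53.4 FPKM in NTV replicate 5, 58.3 in TL replicate 1 and 3.97 in TL replicate 5, and at 1.06 or less elsewhere.

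Of the 101 members, 90 reached a mean of 0.5 FPKM over the 12 libraries and were tested. The 11 that did not were Rbm11, Rbm31y, Rbm42, Rbm44, Rbm46, Rbm47, Rbm8a2, Rbms3, Rbmxl2, Rbmy and Srsf12. Rbm42 had a mean of 0.0065 FPKM, and 75.4% of its exonic bases are also annotated to Gm21982 on the same strand. The highest mean level within each family belonged to Rbm24 (71.9 FPKM), a muscle splicing activator, Hnrnpa2b1 (65.5 FPKM), Srsf5 (59.9 FPKM), Snrpb (50.004 FPKM), a core Sm protein, Sf3b2 (28.3 FPKM), which contacts the branch site, and Cirbp (18.6 FPKM). Srsf5 alone made up 29.4% of all SR protein FPKM. Within groups, in sets not matched for level, the tested members varied less than genes at large. Their median standard deviation was 0.148 on the log2 scale, against 0.208. Snrpe (0.882) and Snrpg (0.509), both Sm proteins, had the largest values.

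In tumour-bearing vehicle mice, 22 of the 90 tested members rose and 3 fell relative to tumour-free mice, and 65 did not pass the test (limma, adjusted p under 0.05 over all 12754 genes tested). Of all genes tested, 13.8% were called higher and 11.5% lower, against 24.4% and 3.33% of the members. Counted in either direction the share of members, 27.8%, was close to the 25.2% of all genes. The median log2 change was 0.17 for the members and 0.015 for all genes, and 75.6% of the members against 51.8% of all genes had an estimate above 0. Without a test, the 4 TV libraries all lay above the 4 NTV libraries for 23 members and all below for 3 (Rbm38, Rbms1 and Rbm43), where 14.4% and 12.7% of all genes did so. Leaving out NTV replicate 6 left 13 members called higher, leaving out TV replicate 3 left 14, and leaving out the libraries with Ucp1 above 2 FPKM left 14. Rescaling the libraries to an equal total left 11. The share of all genes called higher fell as well. It was 9.71%, 9.71% and 9.17% with those libraries left out in turn, and 9.5% with the equal total. The number that fell was 1 with that scaling, with no filter on low values, or leaving out NTV replicates 2, 3 or 5 and TV replicates 3 or 4 one at a time. It was 0 without the Ucp1 libraries, and it was 5 without TV replicate 8. Of all genes, 7.88% were called lower with that scaling, 4.39% with no filter, and 7.72% to 8.81% without those replicates in turn. Without the Ucp1 libraries it was 8.21%, and without TV replicate 8 it was 12%. In every alternative tried, 10 of the 25 calls held: Rbm3, Cirbp, Ythdc1, Rbm20, Rbm5, Rbm33, Rbmx, Srsf5, Hnrnpa1 and Hnrnpa3. The share of reads from mitochondrial genes was 11.6% to 13.5% in NTV, 5.08% to 7.70% in TV and 6.04% to 13.9% in TL, and its part in these changes was not tested. Summed adipocyte markers were at 45.2 to 186 FPKM in NTV, 116 to 625 in TV and 61.8 to 787 in TL; all 6 had an estimate above 0 in TV against NTV, with a median of 1.56, none of them called, and their part was not tested either.

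**Figure D1:**
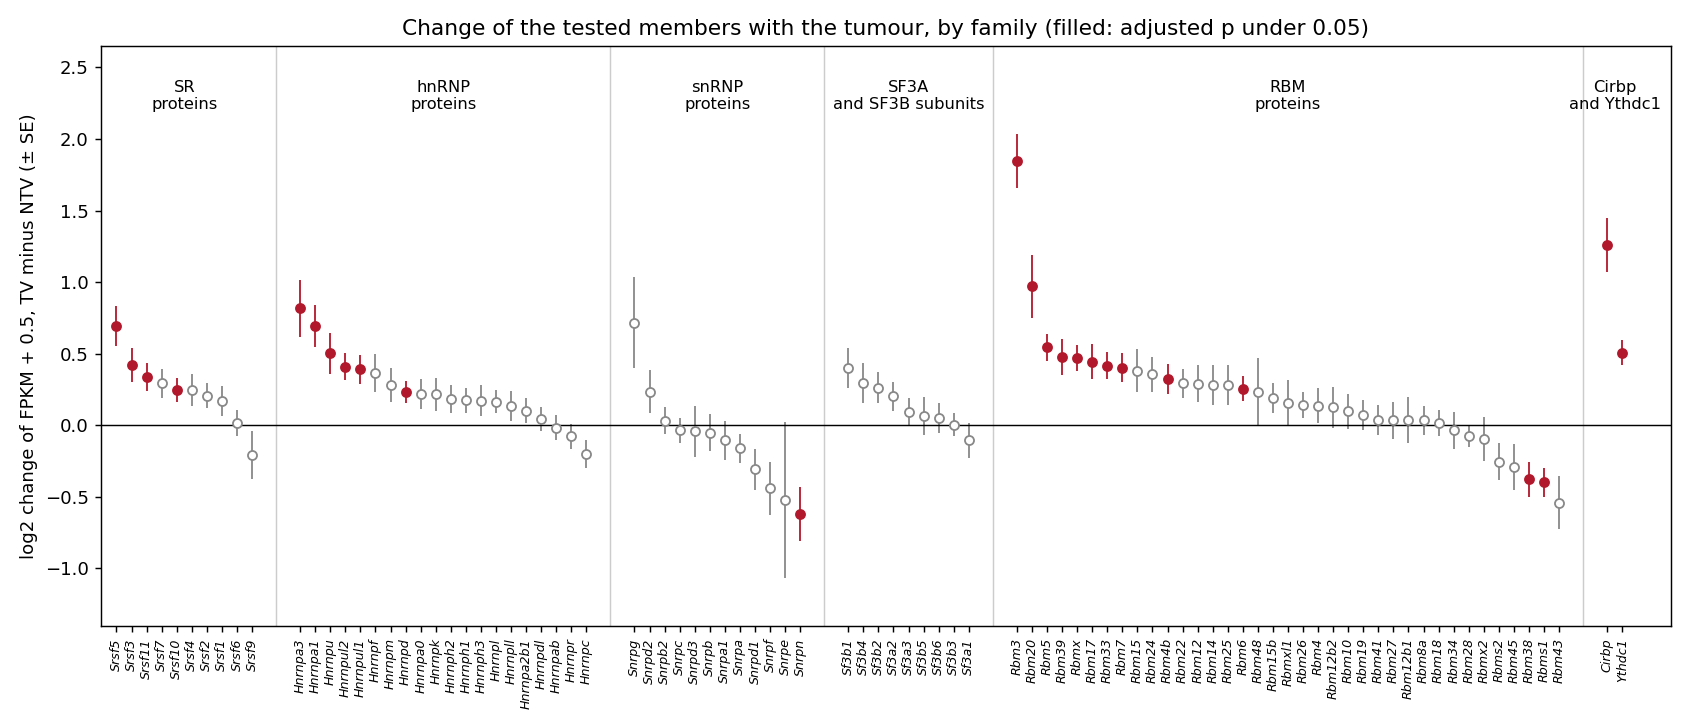
Log2 change of FPKM + 0.5 between TV and NTV (y axis) for the 90 tested members grouped by family (x axis); points are limma estimates, bars their SE, n = 4 libraries per group, and filled points passed an adjusted p of 0.05. The filled points above 0 are spread over the SR, hnRNP and RBM proteins and Cirbp with Ythdc1, none of them an snRNP protein or an SF3 subunit, and Rbm3 stands highest at 1.85.

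The cold-inducible pair had the largest log2 estimates of all tested members relative to NTV. Rbm3 (chrX:8138975-8145880, minus strand) was at 7.01, 6.64, 7.94 and 6.23 FPKM in the NTV libraries and at 28.7, 31.7, 23.4 and 22.1 FPKM in the TV libraries. In the TL libraries Rbm3 was at 16.2, 29.4, 15.7 and 23.7 FPKM. No TV or TL library overlapped the NTV libraries. Rbm3 rose by 1.85 ± 0.19 (SE) on the log2 scale in TV against NTV (limma adjusted p = 0.000521) and by 1.503 ± 0.19 in TL against NTV (adjusted p = 0.00235). Between 498 and 3283 reads per library lay behind these values. Rbm3 has 4 near-identical transcripts elsewhere in the annotation, 3 of them pseudogenes, and 2.00% of its exonic bases are shared with the antisense gene Rbm3os.

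Cirbp (chr10:80165985-80172786, plus strand), whose promoter is shown above, was at 9.63, 9.59, 9.93 and 9.91 FPKM in NTV. It was at 25.4, 30.1, 22.1 and 19.9 FPKM in TV and at 15.2, 29.9, 17.9 and 23.8 FPKM in TL. The NTV libraries were tightly grouped, and all 8 tumour-bearing libraries lay above them. Cirbp rose by 1.26 ± 0.19 in TV against NTV (limma adjusted p = 0.00153) and by 1.07 ± 0.19 in TL against NTV (adjusted p = 0.00772). Within TL, replicates 4 and 7 were higher than replicates 1 and 5 for both genes. Replicates 1 and 5 are the TL libraries that stand apart, with 10.1% and 13.9% mitochondrial reads against 6.04% and 6.55% in replicates 4 and 7.

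Ythdc1 (chr5:86804221-86836659, plus strand) was at 2.37, 2.74, 2.62 and 2.53 FPKM in NTV and at 4.36, 4.06, 3.54 and 3.51 FPKM in TV. In TL it was at 2.16, 2.501, 2.19 and 2.41 FPKM. The TV libraries lay above all others, and the NTV and TL libraries overlapped. Ythdc1 rose by 0.51 ± 0.090 in TV against NTV (limma adjusted p = 0.00302). In TL against TV it fell by 0.63 ± 0.090 (adjusted p = 0.0157), and TL against NTV gave -0.12 ± 0.090 (adjusted p = 0.395).

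**Figure D2:**
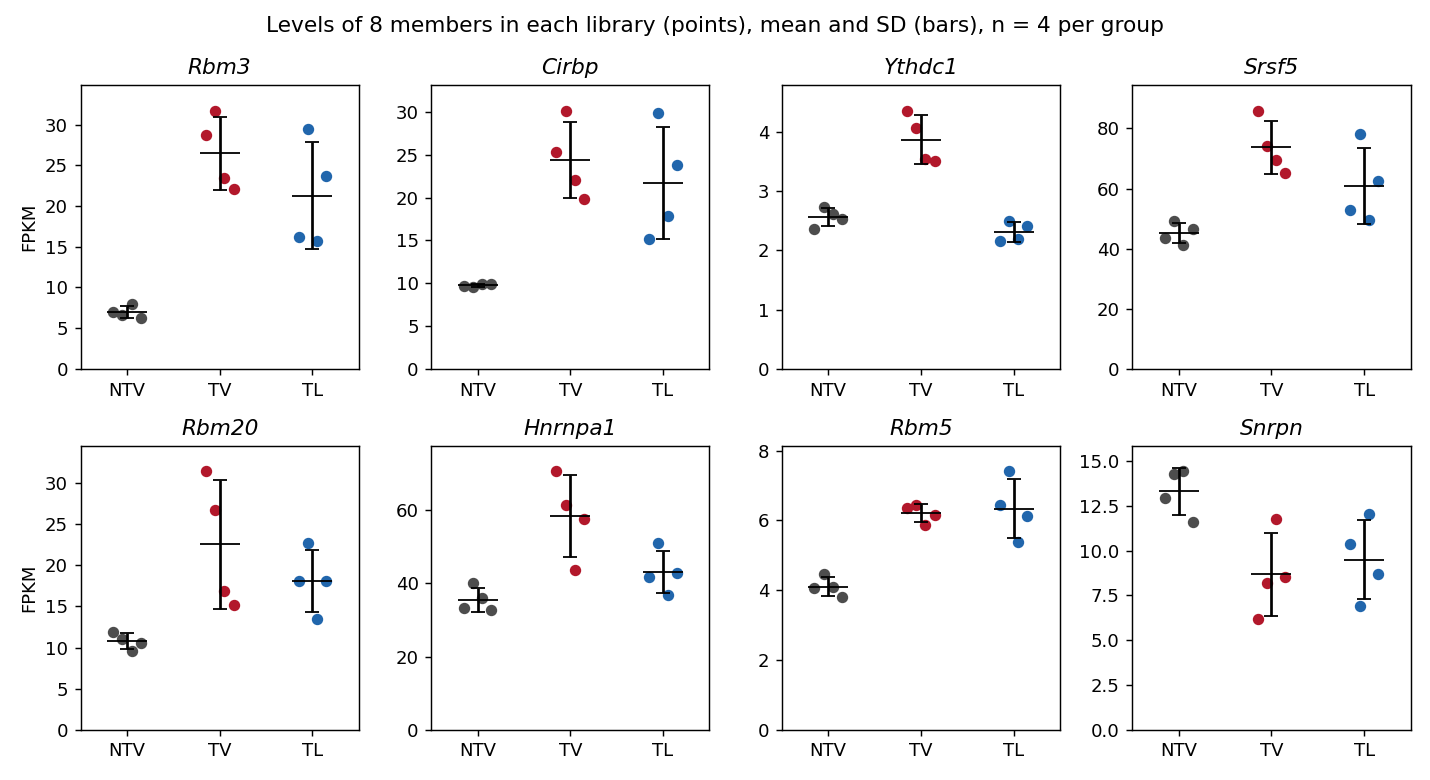
FPKM (y axis, from 0) of 8 members in the NTV, TV and TL groups (x axis); each point is 1 library, with the mean and SD of 4 libraries as bars. Rbm3 and Cirbp are higher in all tumour-bearing libraries than in NTV, Ythdc1 is high only in TV among the 3 groups, and Snrpn is lower in TV with 1 library, at 11.8 FPKM, reaching the NTV range.

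Among SR proteins, 4 of 10 tested members rose in TV and none fell, where 13.8% and 11.5% of all genes did. The family's median log2 change was 0.25. Without the libraries with Ucp1 above 2 FPKM, 2 rose, against 9.17% of all genes. Srsf5 was at 43.5, 49.1, 41.4 and 46.7 FPKM in NTV, at 85.9, 74.0, 69.6 and 65.2 FPKM in TV and at 52.9, 78.0, 49.7 and 62.5 FPKM in TL. Every TV library exceeded every NTV library, and Srsf5 rose by 0.70 ± 0.14 (limma adjusted p = 0.00551). Srsf3, the smallest SR protein, rose by 0.42 (adjusted p = 0.0234), Srsf11 by 0.33 (adjusted p = 0.0271) and Srsf10, a splicing repressor when dephosphorylated, by 0.25 (adjusted p = 0.0437). Srsf3 lost its call without NTV replicate 2, NTV replicate 6 or TV replicate 3 (up to 0.0651). Srsf11 lost it without NTV replicate 2, NTV replicate 5, NTV replicate 6, TV replicate 3 or TV replicate 4 (up to 0.0761), and Srsf10 without 10 of the 12 libraries in turn (up to 0.119). Srsf1, the founding member, had an estimate of 0.17 and Srsf6 of 0.014, and neither passed the test. Summed over the family, SR protein FPKM was 173 ± 4.87 (SD, n = 4) in NTV, 221 ± 14.4 in TV and 217 ± 21.0 in TL.

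Among hnRNP proteins, 6 of 20 rose in TV and none fell, where 13.8% and 11.5% of all genes did. The family's median log2 change was 0.20. Without the Ucp1 libraries 4 rose, against 9.17% of all genes. Hnrnpa1, which binds splicing silencers, was at 33.4, 39.99, 35.98 and 32.8 FPKM in NTV, at 70.6, 61.4, 43.7 and 57.8 FPKM in TV and at 41.8, 51.01, 36.96 and 42.8 FPKM in TL. The TV and NTV libraries did not overlap, and TV replicate 6 lay nearest to NTV. Hnrnpa1 rose by 0.69 ± 0.14 (limma adjusted p = 0.0063) and its relative Hnrnpa3 by 0.82 ± 0.20 (adjusted p = 0.0127). Both are uncertain as single genes, since Hnrnpa1 has 9 near-identical transcripts elsewhere and Hnrnpa3 27, nearly all pseudogenes, and how reads matching several places were counted is not given in the sources used here. Hnrnpa2b1, the most abundant, had an estimate of 0.10 (adjusted p = 0.427). Hnrnpu, a nuclear scaffold protein, rose by 0.50 (adjusted p = 0.0265), its relatives Hnrnpul2 and Hnrnpul1 by 0.41 and 0.39, and Hnrnpd, the AU-rich element binding protein AUF1, by 0.23 (adjusted p = 0.0425). Hnrnpu lost its call without NTV replicates 3, 5 and 6 and TV replicates 3 and 4, each in turn (up to 0.0737), Hnrnpul1 without NTV replicate 6 (0.0549), and Hnrnpd without 8 of the 12 libraries in turn (up to 0.104). Summed hnRNP FPKM was 395 ± 8.86 (SD, n = 4) in NTV, 471 ± 24.3 in TV and 427 ± 28.7 in TL.

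Among the snRNP proteins, the core of the splicing machinery, none of 12 rose and 1 fell in TV, where 13.8% and 11.5% of all genes did. None of the 12 was called without the Ucp1 libraries, where 9.17% of all genes were called higher and 8.21% lower. The family's median was -0.079, and 3 of 12 estimates were above 0. Its estimates ran from -0.62 to 0.72, and the largest was not called. Snrpn encodes SmN, a tissue-restricted counterpart of the core protein SmB, within an imprinted locus (chr7:59982495-60140219, minus strand). It was at 12.97, 14.3, 14.4 and 11.6 FPKM in NTV, at 6.18, 8.22, 11.8 and 8.55 FPKM in TV and at 10.4, 6.91, 12.03 and 8.72 FPKM in TL. TV replicate 6 overlapped the NTV libraries, and Snrpn fell by 0.62 ± 0.19 (limma adjusted p = 0.0331). The call was lost without NTV replicates 2, 3 and 5 and TV replicates 3, 4 and 8, each in turn (up to 0.0878), and 34.1% of the exonic bases of Snrpn are shared with other genes, Snurf among them. The ubiquitous counterpart Snrpb had an estimate of -0.053 (adjusted p = 0.797). Snrpe ranged from 2.24 to 10.6 FPKM within NTV and from 1.39 to 8.82 FPKM within TV, so a change in it was not detectable. Snrpf, with 85.4% of its exonic bases overlapped by genes on the opposite strand, had an estimate of -0.44 (adjusted p = 0.0967).

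No SF3A or SF3B subunit passed the test in TV against NTV, where 13.8% of all genes were called higher and 11.5% lower. The 9 log2 estimates of these subunits had a median of 0.093. Sf3b1, the branch-point protein often mutated in myeloid disease, had the largest estimate, 0.40 ± 0.14 (limma adjusted p = 0.0545), and Sf3b4 had 0.29 (adjusted p = 0.14). Leaving out TV replicate 6 brought Sf3b1 to 0.51 (adjusted p = 0.0153) and leaving out TV replicate 4 brought Sf3b4 to 0.43 (adjusted p = 0.0237), so whether either passes depends on single libraries. The difference between families was not tested.

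The RBM proteins had 10 of 37 tested members higher and 2 lower in TV, with a median of 0.16. Without the Ucp1 libraries 6 were higher and none lower. The shares of all genes were 13.8% higher and 11.5% lower, and 9.17% and 8.21% without those libraries. Rbm20, the regulator of titin splicing (chr19:53677306-53867080, plus strand), was at 11.9, 11.03, 9.60 and 10.6 FPKM in NTV and at 31.4, 26.8, 16.8 and 15.2 FPKM in TV. In TL it was at 18.1, 22.7, 13.4 and 18.1 FPKM. The TV libraries fell into a higher pair, replicates 3 and 4, and a lower pair, replicates 6 and 8, both above NTV. Rbm20 rose by 0.97 ± 0.22 (limma adjusted p = 0.00895). Rbm24, the most abundant of the family, had an estimate of 0.36 ± 0.12 (adjusted p = 0.0519). It passed the test when NTV replicate 3 (0.0477) or TV replicate 8 (0.0214) was left out, or when only genes with a mean of at least 1 FPKM were tested (0.0494).

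Rbm5 (chr9:107740371-107770996, minus strand), a regulator of apoptosis gene splicing, was at 4.07, 4.45, 4.08 and 3.79 FPKM in NTV and at 6.36, 6.44, 5.88 and 6.15 FPKM in TV. In TL it was at 6.45, 7.40, 5.38 and 6.12 FPKM, again with no overlap with NTV. Rbm5 rose by 0.55 ± 0.094 in TV (limma adjusted p = 0.00268) and by 0.57 ± 0.094 in TL against NTV (adjusted p = 0.0063). Its neighbour and relative Rbm6 (chr9:107773559-107873237, minus strand) rose by 0.26 in TV (adjusted p = 0.0487), a call lost without any of 9 of the 12 libraries (up to 0.119). The others that rose were Rbm39, a U2AF-related coactivator (0.48), Rbmx, the X-linked hnRNP G (0.47), Rbm17, the splicing factor SPF45 (0.45), Rbm33 (0.41), Rbm7, which targets nuclear RNA to the exosome (0.40), and Rbm4b (0.32). Of these, Rbm17 lost its call without NTV replicate 6 (adjusted p = 0.0582), Rbm39 without NTV replicate 5, TV replicate 3 or TV replicate 4 (up to 0.0581), and Rbm4b without 9 of the 12 libraries in turn (up to 0.114).

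Rbm38 and Rbms1 fell. Rbm38, a p53 target and the closest relative of Rbm24, was at 57.2, 75.1, 61.6 and 56.996 FPKM in NTV, at 43.0, 47.3, 47.3 and 54.5 FPKM in TV and at 48.4, 39.9, 52.7 and 45.1 FPKM in TL. All 8 tumour-bearing libraries lay below the 4 NTV libraries. Rbm38 fell by 0.38 ± 0.12 in TV (limma adjusted p = 0.0381), a call lost without any of 7 libraries in turn: NTV replicates 2, 3 and 5, TV replicates 3, 4 and 6, and TL replicate 7 (up to 0.0981). Rbms1, which binds single-stranded nucleic acid, went from 6.63 ± 0.368 (SD, n = 4) FPKM in NTV to 4.92 ± 0.472 in TV and fell by 0.40 ± 0.10 (adjusted p = 0.0152). Rbm43 went from 0.852 ± 0.0613 to 0.439 ± 0.157 FPKM without overlap of the groups, and its estimate of -0.54 ± 0.19 was larger in size than those of Rbm38 and Rbms1 but did not pass the test (adjusted p = 0.0505). Most of the stromal markers listed were lower in the same libraries. Summed fibro-adipogenic progenitor markers, 6 of 8 of them called lower, were at 116 to 161 FPKM in NTV, 53.9 to 84.9 in TV and 42.3 to 92.0 in TL. Summed tendon markers were at 63.5 to 119 FPKM in NTV and 17.3 to 42.3 in TV. Of these, 5 of 6 were called lower, and the other had an estimate of 1.12 and was not called. Summed endothelial markers, 2 of 8 called lower, were at 79.0 to 105 FPKM in NTV and 59.2 to 75.0 in TV. None of these markers was at 0 in any group. Their part in the falls of Rbms1, Rbm38 and Snrpn was not tested, and in whole muscle fewer cells of a type and less RNA per cell cannot be told apart.

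**Figure D3:**
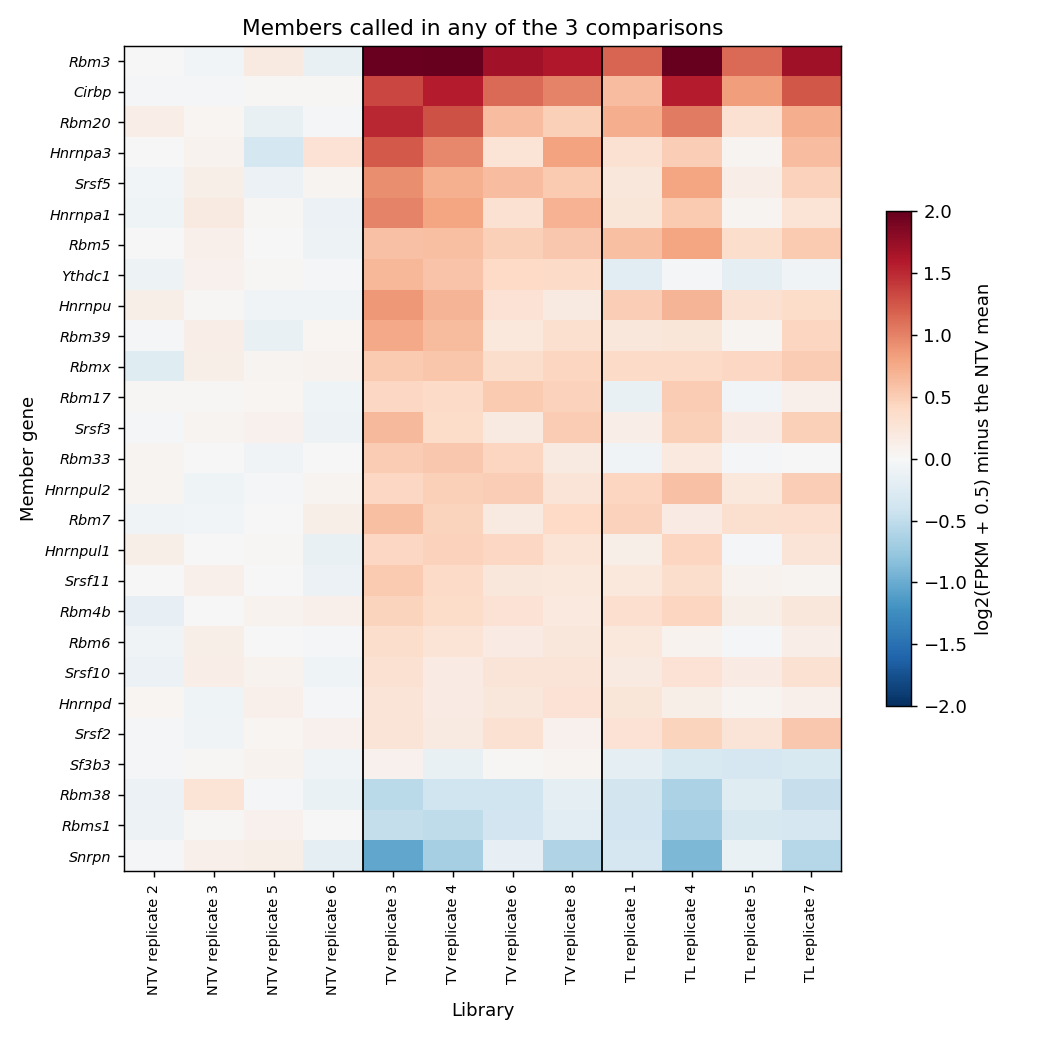
Log2(FPKM + 0.5) minus the NTV mean (colour, scale ending at 2 in each direction) for the 27 members called in any of the 3 comparisons (y axis) in each of the 12 libraries (x axis), ordered by the TV against NTV estimate. Rbm3, Cirbp and Rbm20 carry the strongest colours, TV replicates 3 and 4 are redder than TV replicates 6 and 8 for Rbm20, Hnrnpu and Rbm39, and Ythdc1 lies close to the NTV mean in TL.

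With selpercatinib in tumour-bearing mice, Ythdc1 was the only tested member that passed the test in TL against TV, by a fall of 0.63 on the log2 scale; none rose. Of all genes tested 0.282% were called lower and 0.235% higher. At an unadjusted p under 0.05, 9 members were lower and 3 higher (Rbm12b1, Rbm12b2 and Snrpf), where 8.98% and 7.15% of all genes were. The call of Ythdc1 was lost without TL replicate 1 (limma adjusted p = 0.0638), without TL replicate 5 (0.065), without both (0.249), without the 3 libraries with Ucp1 above 2 FPKM (0.357), with libraries rescaled to an equal total (0.127) and with only these 2 groups in the fit (0.0757). Over all alternatives its estimate stayed between -0.74 and -0.55.

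The median of the members was -0.044 in TL against TV, and that of all genes was -0.0031. With libraries rescaled to an equal total the members' median was 0.030, and that of all genes 0.063. Without TL replicates 1 and 5 these medians were 0.0048 and -0.0080, so the sign of the members' median changed with the setting. In the reported fit 59 of 90 estimates were below 0, and 34.4% of members against 49.4% of all genes were above 0. For Rbm3 the difference was -0.34, with a 95% confidence interval of -0.76 to 0.072 (limma adjusted p = 0.401), and for Cirbp -0.19, with an interval of -0.60 to 0.21 (adjusted p = 0.661). Without TL replicates 1 and 5 these estimates were 0.011 and 0.15, so their direction rests on the TL libraries that stand apart. Hnrnpa3 and Hnrnpa1 had the largest estimates of the hnRNP proteins, -0.45 (adjusted p = 0.296) and -0.42 (adjusted p = 0.195). Rbm33 had -0.39 (adjusted p = 0.0972), and passed the test without TV replicate 8 (0.0352) or TL replicate 4 (0.0442). Srsf9 had 0.35 and Srsf5 -0.29 among the SR proteins, Snrpf 0.40 and Snrpe 0.32 among the snRNP proteins, Sf3b3 -0.28 and Sf3b1 -0.27 among the SF3 subunits, and Rbm12b1 0.41 among the RBM proteins. None of these passed the test, which does not show that the groups are alike.

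**Figure D4:**
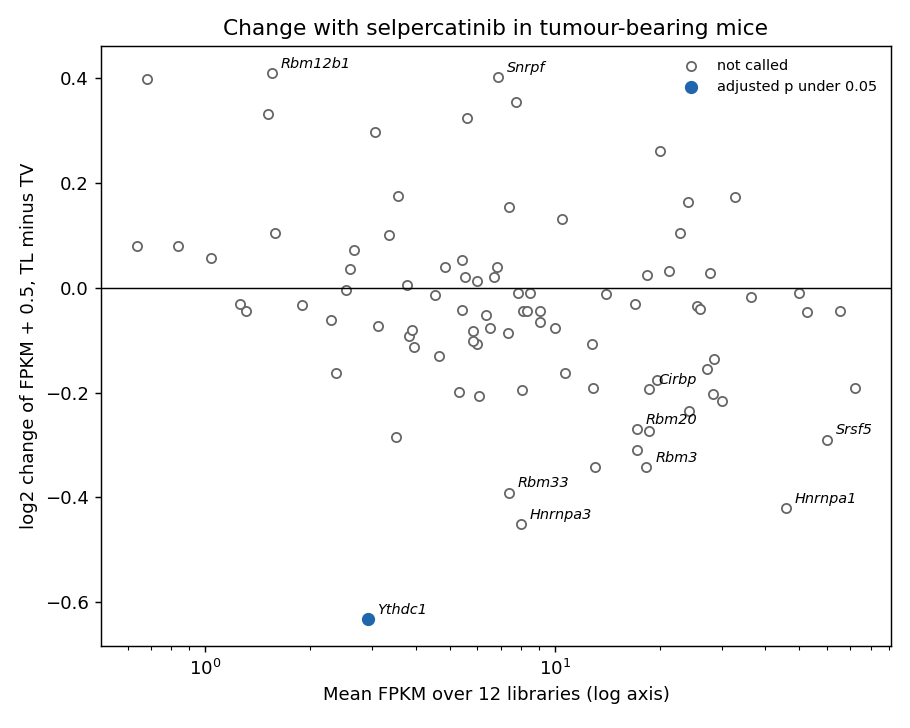
Log2 change of FPKM + 0.5 between TL and TV (y axis) against the mean FPKM over 12 libraries (x axis, log scale) for the 90 tested members; the filled point passed an adjusted p of 0.05. Ythdc1, at -0.63, is the filled point, and the other labelled members lie between -0.45 and 0.41.

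Relative to tumour-free vehicle mice, 6 members were higher and 3 lower in the treated mice, where 4.19% of all genes tested were called higher and 4.62% lower. Rbm3, Cirbp and Rbm5 rose and kept that call in every alternative. Rbmx rose by 0.42 (limma adjusted p = 0.0186), Hnrnpul2 by 0.43 (0.0187) and Srsf2, the nuclear speckle protein SC35, by 0.38 (0.0236). Without TL replicate 7 only 3 members remained called higher, with Hnrnpul2 (0.0539), Rbmx (0.0552) and Srsf2 (0.0683) lost. The share of all genes called higher was then 1.87%. Rbms1 fell by 0.44 (0.0219), Rbm38 by 0.43 (0.048) and Sf3b3, an SF3B scaffold subunit, by 0.28 (0.0479). With libraries rescaled to an equal total, 4 were called higher and none lower, against 3.6% and 2.12% of all genes. That scaling moves the median of all genes from 0.022 to 0.14 in this comparison. Without the Ucp1 libraries 5 were called higher and none lower, against 2.16% and 3.43% of all genes. No call of a fall held in every alternative; Rbms1 was lost without NTV replicates 3, 5 and 6 and TL replicate 4, each in turn (up to 0.0638), and Rbm38 and Sf3b3 each without 9 libraries in turn (up to 0.126 and 0.115). All 10 SR proteins tested had estimates above 0, from 0.12 to 0.41, 1 of them called. This comparison shares the NTV libraries with TV against NTV.

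In a principal component analysis of the 90 tested members, the first component held 51.6% of the variance. The NTV libraries lay between -2.34 and -2.004, the TV libraries between 0.71 and 2.52, and the TL libraries, which overlapped them, between -0.55 and 1.84. TV replicates 3 and 4 and TL replicate 4 lay farthest from NTV, and TL replicates 5 and 1 lay nearest to it.

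The log2 ratio of relatives is described for 6 pairs chosen after their values were seen. A two-sided exact permutation test of 4 libraries against 4 cannot go below 0.0286. Adjusted over the 18 comparisons of these pairs, the lowest p of that test was 0.0644. None passed, and the values are a description only. The log2 ratio of Rbm3 to Cirbp was -0.47 ± 0.13 (SD, n = 4) in NTV and 0.12 ± 0.050 in TV, without overlap. The ratio of Rbm5 to Rbm6, which lie side by side, was 0.80 ± 0.051 in NTV, 1.09 ± 0.047 in TV and 1.27 ± 0.16 in TL, with no overlap between any 2 groups. The Srsf5 to Srsf6 ratio was 1.02 ± 0.15 in NTV and 1.70 ± 0.17 in TV, and that of Hnrnpa1 to Hnrnpa2b1 was -0.82 ± 0.13 and -0.23 ± 0.31, neither with an overlap. For Hnrnpul1 to Hnrnpul2 the ratio was -1.05 ± 0.14 in NTV, -1.07 ± 0.043 in TV and -1.29 ± 0.061 in TL, where TL and TV did not overlap. For Rbmx to Rbmxl1 the values of NTV and TV overlapped.

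Genes that work with these proteins were counted from separate lists, chosen with earlier results of these data known. The counts of these lists were not repeated under the alternatives. For comparison, 13.8% of all genes tested were called higher and 11.5% lower in TV against NTV. Of 30 SR protein kinases and SR-related proteins, 15 rose in TV and none fell, with a median of 0.25. The kinases Clk1 and Clk4, which phosphorylate SR proteins in the nucleus, rose most: Clk1 from 9.07 ± 1.36 (SD, n = 4) FPKM in NTV to 22.7 ± 5.11 in TV, by 1.26 ± 0.20 (limma adjusted p = 0.00188), and Clk4 from 9.93 ± 0.326 to 20.3 ± 5.03 FPKM, by 0.97 ± 0.15 (adjusted p = 0.0021). Of 66 other spliceosome subunits tested, 26 rose and 1 fell, with a median of 0.24. The U5 helicase Ddx23 rose by 0.73 and the late-stage factor Syf2 by 0.72, and the U5 protein Txnl4a fell by 0.39. Of 34 other alternative splicing regulators, 7 rose and none fell, among them the helicase Ddx5 (0.62) and Ewsr1 (0.60).

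Of 12 other genes for writing, reading and erasing m6A, the mark that Ythdc1 reads, 3 rose in TV: the demethylase Fto (0.35), the cytoplasmic reader Ythdf1 (0.28) and the writer subunit Wtap (0.26). In snRNP assembly, 1 of 12 tested genes rose, Smn1 (0.32), the spinal muscular atrophy gene, and 1 fell, the methylosome subunit Wdr77 (-0.30). The shares called higher were 25% of the m6A list and 8.33% of the assembly list, against 13.8% of all genes. In the assembly list 8.33% were called lower, against 11.5% of all genes. Heat shock genes had 5 of 14 lower and none higher in TV, where 11.5% and 13.8% of all genes were. The list's median was -0.37, with 4 of 14 estimates above 0, up to 0.43. Its summed FPKM overlapped between groups, at 854 to 1140 in NTV and 888 to 1381 in TV. A link to the cold-inducible pair was not tested. Hspa4l fell by 0.92 and the mitochondrial chaperonin Hspd1 by 0.73. In TL against TV none of the genes of these 6 lists was called, where 0.235% of all genes were higher and 0.282% lower. In TL against NTV, 9 of 30, 6 of 66 and 4 of 34 of the kinase, spliceosome and regulator lists were higher with none lower. None of the m6A and snRNP assembly lists was called, and 4 of 14 heat shock genes were lower. In that comparison 4.19% of all genes tested were called higher and 4.62% lower.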

How the data were processed

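Poly(A) RNA of gastrocnemius from 12 mice was sequenced after random hexamer priming, per the labels' protocols. The authors deposited FPKM values for 54532 genes. HISAT2 2.05, the mm10 build, featureCounts 1.5.0-p3 and DESeq2 appear in the submitters' processing notes; strand use and the role of each tool are not given in the sources used here. FPKM times gene length gave whole reads for 100% of values (tolerance 0.1 read), so reads and depth were recovered; the scale between libraries equalled median-of-ratios factors. Library pairs within a group differed beyond counting error (the lowest chi-square per degree of freedom among 18 pairs was 17.9).

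The 3 group means were fitted to log2(FPKM + 0.5) in 1 model of all 12 libraries, using limma 3.58.1 (R 4.3.3) and its mean-variance trend. Only the 12754 genes averaging at least 0.5 FPKM entered, and p-values were adjusted over all of them by the Benjamini-Hochberg method. The pseudocount makes fold changes of low genes too small. The threshold for a call was an adjusted p of 0.05. Members and lists were chosen with earlier results of these data known. Within each family, up to 4 called members with the largest rise and up to 4 with the largest fall were named, or else the 2 largest differences, as were Rbm3, Cirbp, Ythdc1, the most abundant members and a few muscle regulators; other called members were named after their values were seen. Alternatives were other pseudocounts, filters, scalings and priors, the 2 groups alone, voom on recovered reads, a replicate block, and each library left out. Leaving out libraries that stand apart was added after seeing the data.

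Near-identical copies were transcripts with 95% identity over 300 bases in GENCODE M21, in which 54495 of the gene identifiers were found. Promoters came from RefSeq (GRCm38.p6), with 86 members matched by symbol. Protein features were not analysed here.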

Additional observations from a re-analysis of the deposited data

Results flagged for a closer look

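Hnrnpa2b1 stood at 74.1 FPKM in TV replicate 8, while the other 3 TV libraries lay between 64.9 and 66.3 FPKM. Its distance from them is 0.844 of the range of the group, more than Dixon's 95% critical value for 4 libraries. It was 1 of 84 groups checked over 28 genes, and chance alone sets apart about 1 in 20 groups.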

How the results depend on the processing

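Of 1612 values of named members under the alternatives, 1421 kept direction and side of the threshold, 170 lost the call, 13 gained it and 8 changed sign. The number called higher in TV against NTV was 22, 11 with libraries rescaled to an equal total, 14 without the libraries with Ucp1 above 2 FPKM, and 13 to 22 with 1 library left out. The shares of all genes were, in that order, 13.8%, 9.5%, 9.17%, and 9.39% to 15%. The number of members called lower was 3, 1 without a filter or with an equal total, 0 without the Ucp1 libraries, and 1 to 5 with 1 library left out. For all genes these shares were 11.5%, 4.39% or 7.88%, 8.21%, and 7.72% to 12%. In TL against TV the number of members lower was 1, 0 with an equal total, the 2 groups alone, without both TL libraries that stand apart or without the Ucp1 libraries, and 0 to 3 with 1 library left out. For all genes these shares were 0.282%, then 0.0784%, 0.0392%, 0.0235% and 0%, and 0.0314% to 1.35%. In TL against NTV the number of members higher was 6, and 3 to 9 with 1 library left out, against 4.19%, and 1.8% to 4.95%, of all genes. The number of members lower was 3, 1 without a filter or a trend, 0 with an equal total or without the Ucp1 libraries, and 0 to 3 with 1 library left out. For all genes these shares were 4.62%, 1.55% or 4.46%, 2.12% or 3.43%, and 2.23% to 5.16%. The causes were not tested.

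Changes of sign were these: Hnrnpa2b1 in TV against NTV was -0.030 with quantile normalization; in TL against TV, without both TL libraries that stand apart as without the Ucp1 libraries, Cirbp was 0.15, Rbm3 0.011 and Snrpe -0.092; and Snrpe was -0.081 without TV replicate 4, within a range of -0.081 to 0.69 over libraries left out. Same-numbered libraries correlated by 0.014 to 0.13 over 4 pairs, too few to tell whether the numbers pair them. With a replicate block 25 members were called higher and 4 lower in TV against NTV, against 14.4% and 12.1% of all genes. Rbm24 was among those gained (limma adjusted p = 0.0442). In TL against TV 1 member was called lower with that block, against 0.29% of all genes. Members under 0.5 FPKM were not tested, and each group has 4 libraries.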
